A study of Mus musculus with 48 samples.

Results

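Angiopoietin-like proteins and the lipases they act on were followed here through 4 genes, Angptl4, Angptl6, Lpl and Lipc. They were taken by name from the gene column of the array design, and 9 probes carried one of these names: 1 each for Angptl4, Angptl6 and Lipc and 6 for Lpl. All 4 genes and all 9 probes passed the filter on dim probes, out of 20486 genes and 30793 probes kept. Each gene was read from its brightest probe, and the other Lpl probes were read separately.

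Liver RNA came from male mice that all carried floxed p110α, the catalytic subunit of PI3Kα. The p110αhep+/+ mice were Cre-negative littermates and the p110αhep-/- mice carried albumin-Cre, which removes p110α from hepatocytes while other liver cells keep it. From 12 weeks of age both genotypes received control diet (CTRL) or high-fat diet (HFD, 60% of the energy from fat) for 12 weeks, and were either fed ad libitum or fasted for 24 h before all were killed at ZT16 (16 h after lights on). This gave 8 groups of 6 mice and 48 one-colour arrays, and each of 6 slides carried 1 array of every group. The median signal of an array was 53 to 71 over a local background of 22 to 42, and 52.3% to 59.3% of the spots were well above background. The single Pik3ca probe was 0.39, 0.08, 0.58 and 0.25 higher in p110αhep-/- mice (log2 fold change; CTRL fed, CTRL fasted, HFD fed and HFD fasted). Where it lies relative to the deleted exons was not established here, and the loss of p110α could therefore not be checked on these arrays.

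Lipoprotein lipase, the product of Lpl, splits the triglycerides of chylomicrons and VLDL at the wall of capillaries and releases fatty acids to the tissue. It is abundant in adipose tissue and muscle and low in the normal adult liver. Hepatic lipase, the product of Lipc, is made by hepatocytes and acts on remnants and HDL in the liver sinusoids. ANGPTL4 is a secreted inhibitor of lipoprotein lipase whose gene is a known target of PPARα, the nuclear receptor that drives fatty acid oxidation in fasting. ANGPTL6 is a secreted protein of the same family made largely by the liver and linked to energy expenditure.

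The probes are 60 bases long and their positions are those of the scanner files (mm9). Angptl4 was read at chr17:33911880-33911939 on the minus strand and Angptl6 at chr9:20678326-20678385 on the minus strand. The Lipc probe covers chr9:70660699-70664375 on the minus strand, a span of 3677 bases, so it crosses an intron and reads spliced RNA. The 6 Lpl probes lie on the plus strand of chromosome 8. Of these, 3 were designed on the RefSeq mRNA, at chr8:71419652-71419711, chr8:71425050-71425109 and chr8:71430267-71430326, and the last of them was the brightest. The other Lpl probes lie 5′ of these: 2 were designed on cDNA clones, at chr8:71405538-71405597 and chr8:71408343-71408402, and 1 on an Ensembl transcript, at chr8:71413311-71413370. Whether these last positions are exonic or intronic was not established here. The probes of Angptl6 and Lipc and the 4 Lpl probes that the comparison of Lpl probes turns on are given as designed, 5′ to 3′:
Angptl6: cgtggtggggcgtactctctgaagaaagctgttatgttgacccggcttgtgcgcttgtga
Lipc: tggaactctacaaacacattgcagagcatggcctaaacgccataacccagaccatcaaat
Lpl, first RefSeq probe: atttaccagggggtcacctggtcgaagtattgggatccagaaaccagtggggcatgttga
Lpl, second RefSeq probe: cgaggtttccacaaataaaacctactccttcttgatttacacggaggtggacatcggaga
Lpl, first clone probe: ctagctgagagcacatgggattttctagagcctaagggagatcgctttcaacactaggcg
Lpl, second clone probe: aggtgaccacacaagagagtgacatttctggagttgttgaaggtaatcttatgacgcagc

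Levels are given on the log2 scale of the normalized signal, as the lowest, the median and the highest of the 6 mice. They compare groups for one probe and not one gene with another. A difference is a log2 fold change from limma with its standard error, and it was called at an adjusted p (Benjamini-Hochberg, over all probes) of at most 0.05. The shares of called genes refer to 20486 genes tested. Contrasts that share a group are not independent, and the mice are separate animals.

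**Figure D1:**
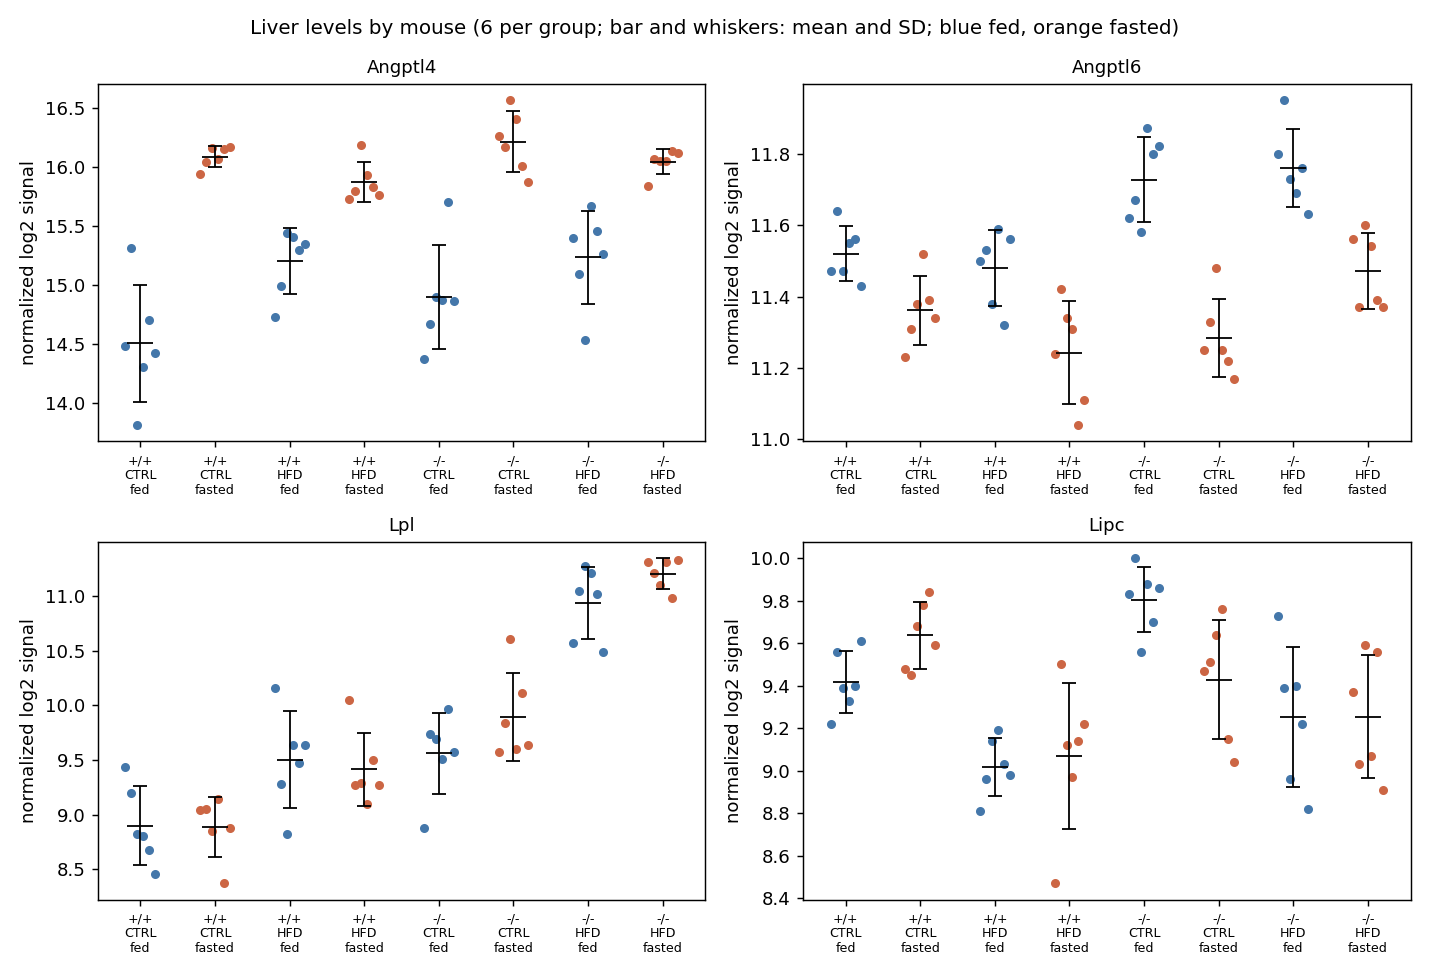
Normalized log2 signal of Angptl4, Angptl6, Lpl and Lipc (vertical axes) in the liver of each mouse, by genotype (+/+ and -/- for p110αhep+/+ and p110αhep-/-), diet and nutritional state (horizontal axes), with 6 mice per group as points and the mean and SD as bar and whiskers. Angptl4 is above the fed mice in every fasted group, and Lpl is highest in p110αhep-/- mice on HFD, with group means of 10.94 fed and 11.21 fasted.

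Fasting raised Angptl4 in both genotypes and on both diets, and the fitted rise was larger on CTRL diet. This difference between the diets was called in p110αhep+/+ mice only, and there not without array weights. In fed p110αhep+/+ mice on CTRL diet, Angptl4 was at 13.81, 14.45 and 15.31, and after the fast at 15.94, 16.11 and 16.17. In p110αhep-/- mice on CTRL diet it was at 14.37, 14.87 and 15.70 fed and at 15.87, 16.21 and 16.57 fasted. On both diets and in both genotypes, the fed and the fasted mice did not overlap.

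On HFD the fed values of Angptl4 were 14.73, 15.32 and 15.44 in p110αhep+/+ mice and 14.53, 15.33 and 15.67 in p110αhep-/- mice. The fasted values were 15.73, 15.81 and 16.19 in p110αhep+/+ mice and 15.84, 16.06 and 16.14 in p110αhep-/- mice. Fasted mice thus lay in a narrow range in every group, and the groups differed mostly in the fed state. The SD of Angptl4 was 0.28 to 0.49 in the fed groups and 0.09 to 0.26 in the fasted groups. The Angptl4 spot was not saturated on any array, and its raw signal was at most 19% of that of the brightest spot.

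The rise of Angptl4 with fasting was 1.70 ± 0.16 (log2 fold change ± SE, 3.24-fold, adjusted p = 1.97e-11) in p110αhep+/+ mice and 1.37 ± 0.16 (2.58-fold, adjusted p = 3.75e-09) in p110αhep-/- mice on CTRL diet. On HFD it was 0.66 ± 0.15 (1.58-fold, adjusted p = 0.000854) and 0.75 ± 0.18 (1.68-fold, adjusted p = 0.00104). The fasted mouse was the higher one on 6 of 6 slides in all 4 comparisons.

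HFD lowered the response of Angptl4 to fasting in p110αhep+/+ mice. The rise on HFD was smaller by 1.04 ± 0.22 on the log2 scale than the rise on CTRL diet, a diet by fasting interaction of -1.04 with an adjusted p of 0.0054. It was negative on 5 of 6 slides, and was -0.57 within the first washing batch and -1.26 within the second. Without array weights the same interaction was -0.92, with an adjusted p of 0.0615. In p110αhep-/- mice the interaction was -0.62 ± 0.24 (95% confidence interval -1.10 to -0.14, adjusted p = 0.108) and was not called. Whether fasting acted differently in the 2 genotypes was tested on each diet. The genotype by fasting interaction of Angptl4 was -0.33 on CTRL diet (95% confidence interval -0.78 to 0.12) and 0.09 on HFD (95% confidence interval -0.37 to 0.56), and neither was called.

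The smaller response on HFD went with a higher fed level. In fed p110αhep+/+ mice HFD raised Angptl4 by 0.84 ± 0.15 (1.79-fold, adjusted p = 7.23e-05), higher on 5 of 6 slides and with overlap of the groups. The difference was 0.27 within the first washing batch and 1.13 within the second, with 3 mice a group in each. In fed p110αhep-/- mice it was 0.38 ± 0.17 (adjusted p = 0.146), with 0.80 within the first washing batch and -0.12 within the second. The genotype by diet interaction of Angptl4 in fed mice was -0.45 ± 0.23 (adjusted p = 0.296) and was not called. It was 0.53 within the first batch and -1.25 within the second. In fasted mice the HFD difference was -0.20 ± 0.15 in p110αhep+/+ and -0.23 ± 0.17 in p110αhep-/- mice, and neither was called.

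Loss of p110α left Angptl4 within the spread of the mice in most settings. In fed mice on CTRL diet it was 0.51 ± 0.16 higher in p110αhep-/- mice (adjusted p = 0.0199), with overlapping groups. This difference was -0.06 within the first washing batch and 0.84 within the second. It was 0.39 without array weights, and then had an adjusted p of 0.125. The differences were 0.18 (95% confidence interval -0.13 to 0.49) in fasted mice on CTRL diet, 0.06 (-0.27 to 0.38) in fed mice on HFD and 0.15 (-0.18 to 0.49) in fasted mice on HFD.

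In the order of the 8 group means, the 4 fasted groups of Angptl4 came first, from 16.22 to 15.87, and the 4 fed groups followed, from 15.24 to 14.50. The step between the lowest fasted and the highest fed group was 0.63 and exceeded the larger SD of both, 0.40. Within the fed groups each step was below the larger SD of the neighbours.

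Angptl6 moved against Angptl4 with fasting, by small amounts. Fed p110αhep-/- mice on CTRL diet had 11.58, 11.74 and 11.87, and fasted ones 11.17, 11.25 and 11.48. On HFD the same genotype had 11.63, 11.74 and 11.95 fed and 11.37, 11.47 and 11.60 fasted. In p110αhep-/- mice the fed and fasted values did not overlap on either diet, as was so for 15.6% of all genes on CTRL diet and 8.44% on HFD.

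Fasting lowered Angptl6 by 0.41 on the log2 scale (log2 fold change -0.41 ± 0.07, adjusted p = 2.42e-06) in p110αhep-/- mice on CTRL diet. The change was -0.31 ± 0.07 (adjusted p = 0.00104) in p110αhep-/- mice on HFD and -0.23 ± 0.06 (adjusted p = 0.00416) in p110αhep+/+ mice on HFD. In p110αhep+/+ mice on CTRL diet it was -0.13 ± 0.06 (adjusted p = 0.11) and was not called, although the fasted mouse was lower on 6 of 6 slides. The genotype by fasting interaction of Angptl6 on CTRL diet was -0.28 ± 0.09 and negative on 6 of 6 slides, with an adjusted p of 0.0758.

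Angptl6 was higher in p110αhep-/- mice in 3 of the 4 settings. The p110αhep+/+ mice had 11.43, 11.51 and 11.64 on CTRL diet and 11.32, 11.52 and 11.59 on HFD in the fed state. The differences in the fed state were 0.21 ± 0.07 on CTRL diet (adjusted p = 0.0189) and 0.28 ± 0.07 on HFD (adjusted p = 0.00109), and only on HFD were the groups free of overlap. Of all genes, 13% had no overlap between the genotypes in fed mice on HFD. In fasted mice on HFD the difference was 0.20 ± 0.07 (adjusted p = 0.0191), and it was 0.16 with an adjusted p of 0.0631 under median scaling. In fasted mice on CTRL diet it was -0.07 ± 0.06 (adjusted p = 0.479). The HFD differences of Angptl6 were at most 0.17 in size and were not called. Its group means ran from 11.76 in fed p110αhep-/- mice on HFD to 11.24 in fasted p110αhep+/+ mice on HFD, and both fed p110αhep-/- groups stood above the third by 0.21, more than the larger SD of 0.12.

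For fasting, Angptl4 was 1 of 4 members higher in each of the 4 comparisons. Over all genes, 16% and 13.8% were higher in p110αhep+/+ mice (CTRL and HFD) and 16.4% and 13.9% in p110αhep-/- mice. Angptl6 was 1 of 4 members lower in 3 of these comparisons, where 14.7% of all genes were lower in p110αhep+/+ mice on HFD, 19.1% in p110αhep-/- mice on CTRL diet and 14.6% on HFD. In p110αhep+/+ mice on CTRL diet, 16.5% of all genes were lower.

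Lpl had the largest genotype difference of the 4 members in each setting and, in p110αhep-/- mice, the largest difference between the diets. In fed mice on CTRL diet it was at 8.46, 8.81 and 9.44 in p110αhep+/+ and at 8.88, 9.63 and 9.97 in p110αhep-/- mice. In fasted mice on CTRL diet it was at 8.37, 8.96 and 9.14 in p110αhep+/+ and at 9.57, 9.74 and 10.61 in p110αhep-/- mice. The genotypes overlapped in the fed state and did not overlap in the fasted state.

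On HFD, fed p110αhep+/+ mice had Lpl at 8.82, 9.55 and 10.16 and fed p110αhep-/- mice at 10.49, 11.04 and 11.28. Fasted mice on HFD had 9.10, 9.28 and 10.05 in p110αhep+/+ and 10.98, 11.26 and 11.33 in p110αhep-/-. The genotypes did not overlap on HFD in either state.

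Loss of p110α raised Lpl in all 4 settings. The difference was 0.70 ± 0.19 in fed mice on CTRL diet (1.62-fold, adjusted p = 0.00648) and 1.05 ± 0.18 in fasted ones (2.07-fold, adjusted p = 2.64e-05). On HFD it was 1.39 ± 0.19 in fed mice (2.62-fold, adjusted p = 2.08e-07) and 1.84 ± 0.20 in fasted mice (3.58-fold, adjusted p = 9.74e-10). In each setting the p110αhep-/- mouse was higher on 6 of 6 slides, and within the washing batches the 8 differences ranged from 0.48 to 1.94.

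HFD raised Lpl in fed p110αhep+/+ mice by 0.65 ± 0.18 (1.57-fold, adjusted p = 0.00738). In fasted p110αhep+/+ mice the difference was 0.50 ± 0.18 (1.41-fold, adjusted p = 0.0575) and was not called, with the HFD mouse higher on 6 of 6 slides. In p110αhep-/- mice HFD raised Lpl by 1.34 ± 0.20 fed (2.53-fold, adjusted p = 4.94e-06) and by 1.29 ± 0.20 fasted (2.45-fold, adjusted p = 1.08e-05). These groups did not overlap, as was so for 3.9% of all genes in fed and 4.1% in fasted p110αhep-/- mice.

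The genotype by diet interaction of Lpl was 0.69 ± 0.27 in fed mice (95% confidence interval 0.15 to 1.23, adjusted p = 0.154) and 0.79 ± 0.27 in fasted mice (0.25 to 1.33, adjusted p = 0.0741). It was positive on 6 of 6 slides in both states and was not called in either. Fasting moved Lpl by -0.01, -0.16, 0.34 and 0.29 (p110αhep+/+ on CTRL diet and HFD, then p110αhep-/- on CTRL diet and HFD), and none of these was called. The 95% confidence interval was -0.38 to 0.36 in p110αhep+/+ mice on CTRL diet.

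In the order of Lpl means, both p110αhep-/- groups on HFD stood first, at 11.21 fasted and 10.94 fed. A step of 1.04 separated them from p110αhep-/- mice on CTRL diet, at 9.90 fasted and 9.56 fed. The p110αhep+/+ mice on HFD followed, at 9.50 fed and 9.41 fasted. These means lay within the range of fed p110αhep-/- mice on CTRL diet, 8.88 to 9.97, and below the lowest of the fasted ones, 9.57. The p110αhep+/+ mice on CTRL diet were lowest, at 8.90 and 8.89.

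**Figure D2:**
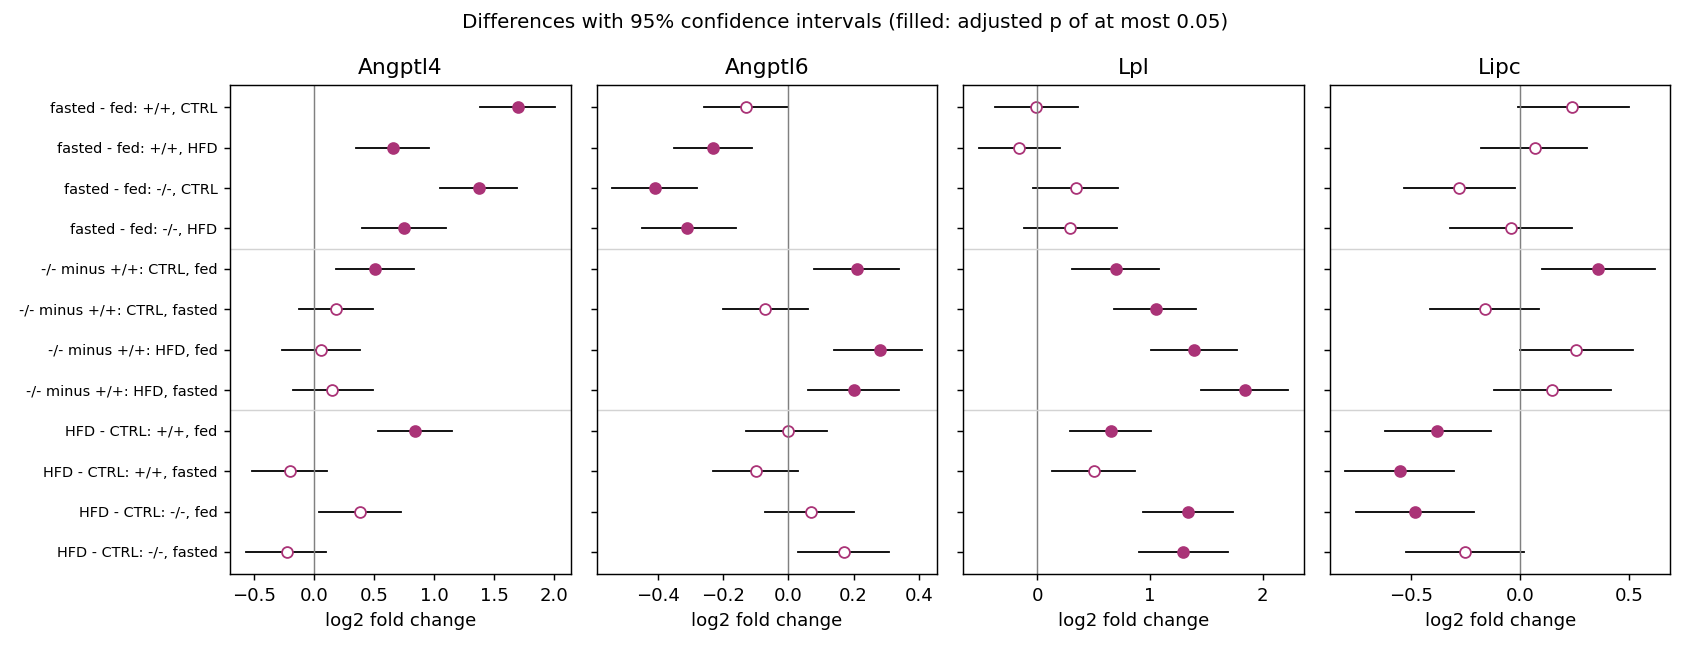
Log2 fold changes (horizontal axes) of Angptl4, Angptl6, Lpl and Lipc for the 12 comparisons of fasting, genotype and diet (vertical axis), with 95% confidence intervals as lines and filled points where the adjusted p was at most 0.05. Each panel has its own scale. Fasting is called for Angptl4 in all 4 comparisons and loss of p110α for Lpl in all 4.

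Because the liver holds few cells that make lipoprotein lipase, markers of other cells were read beside Lpl. In bulk liver, fewer cells of a type and less RNA per cell cannot be told apart. Of 13 macrophage markers, 5 were lower in fed p110αhep-/- than in fed p110αhep+/+ mice on HFD, where Lpl was higher and 16.3% of all genes were lower, and the median of the 13 was 0.04. The 5 were Spp1 (-2.23), Gpnmb (-1.46), Itgax (-1.27), Trem2 (-0.96) and Cd9 (-0.62), and Gpnmb was well above background on only 1 of 6 arrays of these p110αhep-/- mice. The Kupffer cell markers Marco (0.71), Timd4 (0.42), Vsig4 (0.33) and Clec4f (0.18) were not called there. In fasted mice on HFD, 5 of the 13 were lower and 1, Vsig4 (0.50), was higher (median 0.10), where 17.7% of all genes were lower and 19.1% higher. On CTRL diet, 2 of the 13 were lower in fed p110αhep-/- mice (median 0.01; 10.6% of all genes were lower). In fasted mice on CTRL diet 1 was higher and 1 lower (median 0.25), where 12.5% of all genes were higher and 12.3% lower. The log2 of the summed macrophage signal was 14.84 to 15.50 in fed p110αhep+/+ mice on HFD and 15.09 to 16.02 in fed p110αhep-/- mice. In p110αhep+/+ mice, HFD raised 4 of these 13 markers in the fed state (median 0.15), where 12.4% of all genes and Lpl were higher. In fasted p110αhep+/+ mice it raised 5 (median 0.29), where 8.96% of all genes were higher and Lpl was not called. In p110αhep-/- mice, where HFD raised Lpl by 1.34 fed and 1.29 fasted, it raised 0 of the 13 in either state. It lowered 1 fed (median 0.09) and 0 fasted (median -0.07), where 6.38% and 5.18% of all genes were lower.

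Of the 6 adipocyte markers, Adipoq did not pass the filter and 5 were tested. In fed p110αhep-/- against p110αhep+/+ mice on HFD, Lep was 0.55 higher and Cfd lower (log2 fold change -4.11), and the median of the 5 was 0.06. On CTRL diet 1 of the 5, Cfd, was lower in p110αhep-/- mice in both states. Its group means were 11.23 and 5.81 fed and 11.30 and 5.91 fasted (p110αhep+/+, then p110αhep-/-). In p110αhep+/+ mice HFD raised 2 of the 5, Fabp4 and Cfd, fed and fasted (medians 0.09 and -0.01). Of all genes, 12.4% and 8.96% were higher there. HFD raised 3 of the 5 in fed p110αhep-/- mice, Fabp4 by 2.06, Cfd by 3.22 and Lep by 0.42 (median 0.42; 5.82% of all genes were higher). On CTRL diet, Cfd was well above background on 3 of 6 arrays of these mice. The log2 of the summed signal of the 5 was 13.50 to 13.93 in fed p110αhep+/+ mice on HFD, 11.86 to 13.01 in fed p110αhep-/- mice on HFD and 10.32 to 10.88 in fed p110αhep-/- mice on CTRL diet. Its drop between the genotypes on HFD came from Cfd, with group means of 13.28 in fed p110αhep+/+ and 8.82 in fed p110αhep-/- mice. The means of Fabp4 there were 11.88 and 12.33, a difference that was not called. The 3 muscle markers (Acta1, Ckm and Myh6) did not pass the filter. Of the 5 endothelial markers, Clec4g (0.68), Pecam1 (0.42), Stab2 (0.41) and Kdr (0.33) were higher in fasted p110αhep-/- than in p110αhep+/+ mice on HFD (median 0.41; 19.1% of all genes were higher). In fed mice on HFD, Stab2 (0.21) was higher and Lyve1 (-0.82) lower, and the other 3 were not called (median 0.12). Of the 6 hepatocyte markers, 2 were higher in p110αhep-/- mice on HFD in each state (median 0.14 in both), where 16.6% and 19.1% of all genes were higher. These were Cps1, a urea cycle enzyme (2.56-fold), and Cyp2e1 (1.08-fold) in fed mice and Cps1 (2.14-fold) and Hnf4a (1.33-fold) in fasted mice. The summed signal of the 6, most of it from Alb and Cyp2e1, was 19.89 to 20.13 on the log2 scale over all mice. Of the 5 stellate markers, 2 were lower on HFD in p110αhep-/- than in p110αhep+/+ mice, Col1a1, a collagen gene (-1.79 fed and -2.32 fasted), and Pdgfrb (-0.32 and -0.68), and 1 was higher, Reln (0.35 and 0.34), with medians of -0.27 and -0.39, where 16.3% and 17.7% of all genes were lower and 16.6% and 19.1% higher. In p110αhep+/+ mice HFD raised the first 2, Col1a1 by 1.29 fed and 1.83 fasted and Pdgfrb by 0.46 and 0.61, where 12.4% and 8.96% of all genes were higher. Their summed signal was 11.69 to 12.37 on the log2 scale in fed p110αhep+/+ mice on HFD and 11.53 to 12.16 in fed p110αhep-/- mice on HFD. On CTRL diet, 1 endothelial marker was higher and 1 lower in fed p110αhep-/- mice, and 2 were higher in fasted ones (median 0.17 in both). Of the stellate markers, 1 was higher and 1 lower fed, and 1 lower fasted (median 0.03 in both). Of the hepatocyte markers, 1 was higher and 1 lower fed, and 2 higher fasted (medians 0.07 and 0.10). In these comparisons 10.9% and 12.5% of all genes were higher and 10.6% and 12.3% lower. The part of these cells in the Lpl differences was not tested.

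The other Lpl probes followed the brightest one to different degrees. Across the 48 arrays, which share processing and groups, the second RefSeq probe correlated with the brightest one at r = 0.99 and the first RefSeq probe at r = 0.94. The second and the first clone probe correlated with it at r = 0.76 and r = 0.73, and the Ensembl probe at r = 0.47. The brightest, the second RefSeq and the Ensembl probe were well above background on all 48 arrays, the second clone probe on 43, the first RefSeq probe on 39 and the first clone probe on 32.

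**Figure D3:**
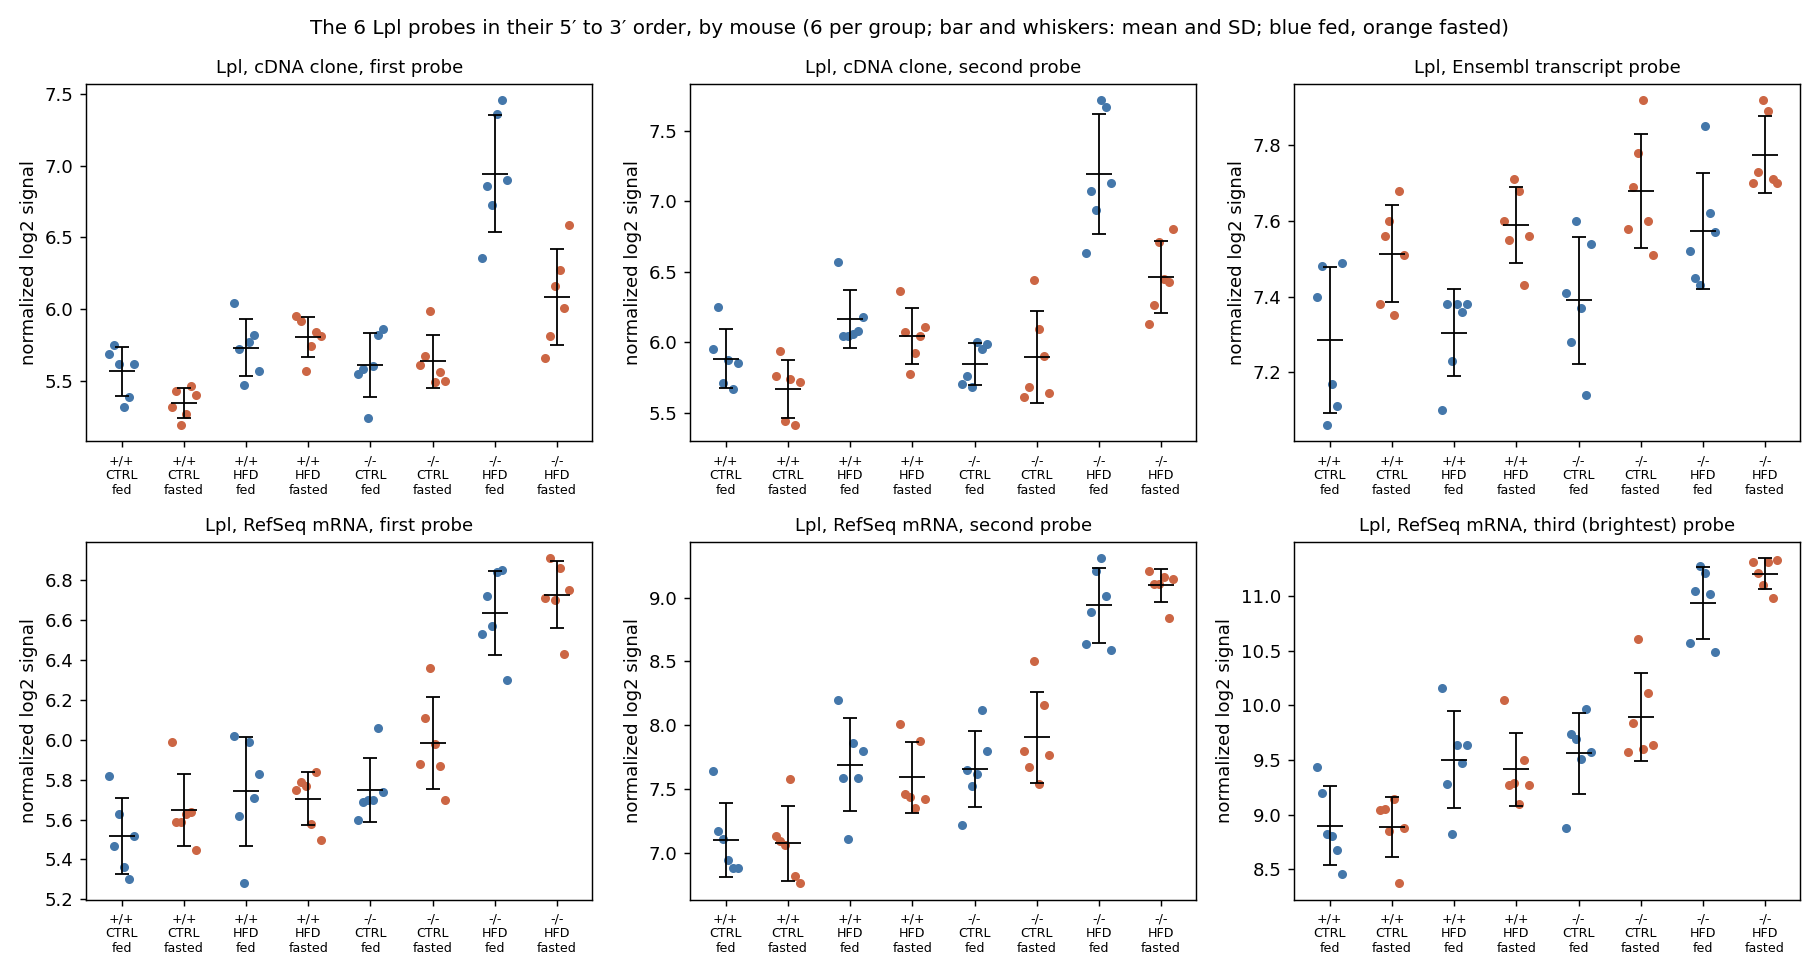
Normalized log2 signal of the 6 Lpl probes (vertical axes) in each mouse, by genotype, diet and nutritional state (horizontal axes), in the order of the probes along the gene from 5′ to 3′, with 6 mice per group as points and the mean and SD as bar and whiskers. The 3 RefSeq probes are high in both fed and fasted p110αhep-/- mice on HFD, and the clone probes are higher in the fed than in the fasted mice of that genotype and diet (means of 6.95 and 6.08 for the first, 7.20 and 6.46 for the second).

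The second RefSeq probe, in the sequence given above, showed the genotype difference in all 4 settings, at 0.53, 0.84, 1.19 and 1.55 (CTRL fed, CTRL fasted, HFD fed and HFD fasted). The first RefSeq probe gave 0.21, 0.39, 0.88 and 1.03 in the same order, and the first of these was not called. This dimmer probe did pass for the genotype by diet interaction, at 0.67 ± 0.16 in fed mice (adjusted p = 0.0138) and 0.65 ± 0.15 in fasted mice (adjusted p = 0.0109). Of the p110αhep+/+ arrays on CTRL diet, 2 of 6 fed and 3 of 6 fasted ones showed this probe well above background. Its HFD differences in p110αhep+/+ mice were 0.24 fed and 0.07 fasted, against 0.65 and 0.50 for the brightest probe. Both interactions thus rest partly on values near background and are uncertain in size. The Ensembl probe gave genotype differences of 0.16, 0.19, 0.25 and 0.17 (CTRL fed, CTRL fasted, HFD fed and HFD fasted), and only the third was called (adjusted p = 0.0172). It rose with fasting by 0.26 and 0.28 in p110αhep+/+ mice (CTRL diet and HFD) and by 0.29 in p110αhep-/- mice on CTRL diet, where the brightest probe was not called.

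The clone probes stood apart in p110αhep-/- mice on HFD, where they were high in the fed state and lower after the fast. The first clone probe was at 6.36, 6.88 and 7.46 in these mice fed and at 5.66, 6.08 and 6.59 fasted. The second was at 6.63, 7.10 and 7.72 fed and at 6.13, 6.44 and 6.80 fasted. Both probes were well above background on all arrays of these groups. In fasted p110αhep+/+ mice on CTRL diet the first clone probe was not well above background on any array, and in the fed CTRL groups it was so on 3 of 6 arrays in each genotype. Fed and fasted values of p110αhep-/- mice on HFD overlapped for both probes, but the fasted mouse was lower on 6 of 6 slides.

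Fasting changed the first clone probe by -0.91 ± 0.14 (adjusted p = 4.36e-06) and the second by -0.77 ± 0.15 (adjusted p = 0.000181) in p110αhep-/- mice on HFD, where the brightest probe was 0.29 ± 0.21 higher. The diet by fasting interaction in p110αhep-/- mice was -1.0 ± 0.19 (adjusted p = 0.000483) and -0.87 ± 0.21 (adjusted p = 0.00567) for the clone probes, against -0.05 ± 0.28 for the brightest. The genotype by diet interaction in fed mice was 1.25 ± 0.18 (adjusted p = 6.33e-05) and 1.08 ± 0.20 (adjusted p = 0.00132). Loss of p110α raised the clone probes in fed mice on HFD by 1.25 and 1.07, while in fed mice on CTRL diet their differences were 0.00 and -0.01. The first clone probe was well above background on 3 of 6 arrays in each fed CTRL group. In fasted p110αhep-/- mice on CTRL diet it was so on 4 of 6. Its difference of 0.00 and its interactions with diet thus rest on values near background and are uncertain in size. The second clone probe was well above background on 5 and 3 of 6 arrays of p110αhep+/+ mice on CTRL diet (fed, fasted). In p110αhep-/- mice on CTRL diet it was so on 6 and 5. Its CTRL means were 5.67 to 5.89, and its interactions with diet are uncertain in size as well. The difference between probes was not tested.

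Lipc was lower on HFD. In p110αhep+/+ mice it was at 9.22, 9.39 and 9.61 on CTRL diet and at 8.81, 9.01 and 9.19 on HFD in the fed state, with no overlap. Of all genes, 9.51% had no overlap in this comparison. In fasted p110αhep+/+ mice it was at 9.45, 9.63 and 9.84 on CTRL diet and at 8.47, 9.13 and 9.50 on HFD. The groups overlapped there through the highest mouse on HFD.

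HFD changed Lipc by -0.38 ± 0.12 in fed (adjusted p = 0.0229) and by -0.55 ± 0.12 in fasted p110αhep+/+ mice (adjusted p = 0.00169). In fed p110αhep-/- mice it changed by -0.48 ± 0.14 (adjusted p = 0.0139), from 9.56, 9.85 and 10 on CTRL diet to 8.82, 9.31 and 9.73 on HFD. In these 3 comparisons the HFD mouse was lower on 6 of 6 slides. In fasted p110αhep-/- mice the difference was -0.25 ± 0.13 (adjusted p = 0.259), between 9.04, 9.49 and 9.76 on CTRL diet and 8.91, 9.22 and 9.59 on HFD.

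Loss of p110α raised Lipc by 0.36 ± 0.13 in fed mice on CTRL diet (adjusted p = 0.0405), on 6 of 6 slides and with overlap, and without the filter on dim probes it was 0.37 with an adjusted p of 0.0835. The other genotype differences of Lipc were -0.16, 0.26 and 0.15 (CTRL fasted, HFD fed and HFD fasted) and were not called. Fasting changed Lipc by 0.24, 0.07, -0.28 and -0.04 (p110αhep+/+ on CTRL diet and HFD, then p110αhep-/- on CTRL diet and HFD), and none was called. The genotype by fasting interaction on CTRL diet was -0.52 ± 0.18, negative on 6 of 6 slides, with an adjusted p of 0.0938. Among the ordered means of Lipc, from 9.81 to 9.02, only the step from the first to the second (0.17) exceeded the larger SD of the neighbours, 0.15.

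For genotype, 4 of 4 members were higher in fed p110αhep-/- mice on CTRL diet, where 10.9% of all genes were higher and 10.6% lower. Without the filter on dim probes, Angptl4 (adjusted p = 0.0594) and Lipc (adjusted p = 0.0835) were not called there. Angptl4 was also not called without array weights or with the arrays of fed mice only. Lpl was called there with the brightest and the second RefSeq probe. It was not called with the first RefSeq (0.21), the Ensembl (0.16), the first clone (0.00) or the second clone probe (-0.01). Lpl was the 1 member called in fasted mice on CTRL diet (12.5% of genes higher and 12.3% lower). Lpl and Angptl6 were higher on HFD, both in fed mice (16.6% of genes higher and 16.3% lower) and in fasted mice (19.1% of genes higher and 17.7% lower).

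For HFD, Angptl4 and Lpl were higher and Lipc lower in fed p110αhep+/+ mice, where 12.4% of genes were higher and 11.7% lower. Lipc was the 1 member called in fasted p110αhep+/+ mice (8.96% of genes higher and 6.97% lower). Lpl was higher and Lipc lower in fed p110αhep-/- mice (5.82% higher and 6.38% lower), and Lpl was higher in fasted ones (5.65% higher and 5.18% lower).

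Of the 6 interactions, the members passed in one, the diet by fasting interaction of Angptl4 in p110αhep+/+ mice, where 2.36% of genes were called. The shares were 7.9% for the same interaction in p110αhep-/- mice, 3.92% and 3.37% for genotype by fasting on CTRL diet and HFD, and 2.83% and 4.96% for genotype by diet in fed and fasted mice. The shares of genes with no overlap between fed and fasted mice, as Angptl4 had, were 11.8%, 10.9%, 15.6% and 8.44% (p110αhep+/+ on CTRL diet and HFD, then p110αhep-/- on CTRL diet and HFD). For the genotypes, as Lpl had in 3 settings, they were 10.3% in fasted mice on CTRL diet, 13% in fed mice on HFD and 14% in fasted mice on HFD. The median log2 fold change of all genes was between -0.02 and 0.03 in each comparison.

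Target genes of PPARα gave the setting for Angptl4. On CTRL diet, 16 of 20 such genes rose with fasting in p110αhep+/+ mice (median log2 fold change 0.60) and 19 of 20 in p110αhep-/- mice (median 1.04), where 16% and 16.4% of all genes were higher. On HFD, 7 of 20 rose in each genotype, where 13.8% and 13.9% of all genes were higher, and 4 and 2 fell, where 14.7% and 14.6% were lower (medians 0.19 and 0.14). In p110αhep+/+ mice on CTRL diet the largest changes were those of Cyp4a14 (3.70) and Cyp4a10 (2.78), which oxidize fatty acids at the omega end, and of Acot1 (2.04), which hydrolyses acyl-CoA. In p110αhep-/- mice they were those of Pdk4 (4.13), which restrains glucose oxidation, Cyp4a14 (3.84) and the hormone gene Fgf21 (3.43).

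HFD raised 14 of the 20 PPARα targets in fed p110αhep+/+ mice (median 0.35; 12.4% of all genes were higher), with Cyp4a14 at 1.56, Pdk4 at 1.36 and Fgf21 at 1.14. It raised 16 of 20 in fed p110αhep-/- mice (median 0.58; 5.82% of all genes), where Angptl4 was not called, with Cyp4a14 at 2.52, Vnn1 at 2.28 and Cyp4a10 at 1.51. In fasted p110αhep-/- mice HFD lowered 15 of 20 (median -0.42; 5.18% of all genes were lower), with Pdk4 at -2.26, Fgf21 at -1.75 and Ehhadh at -1.38. In fasted p110αhep+/+ mice 5 were lower and 1 was higher with HFD (median -0.11), where 6.97% of all genes were lower and 8.96% higher, and the 5 were 2 to 10 under the other settings. Loss of p110α lowered 11 of 20 in fed mice on CTRL diet (median -0.32), where 10.6% of all genes were lower, with Vnn1 at -2.16, Acaa1b at -0.96 and Fgf21 at -0.72. Angptl4 was higher in that comparison, but it was not called without array weights (adjusted p = 0.125) and was at -0.06 within the first washing batch. In fasted mice on CTRL diet, 5 of 20 were higher in p110αhep-/- mice (median 0.12; 12.5% of all genes). On HFD, 2 were higher and 7 lower in fed mice (median -0.15), and 2 were higher and 9 lower in fasted mice (median -0.19), where 16.3% and 17.7% of all genes were lower and 16.6% and 19.1% higher. With a fold change over 1.5 required, the 9 were 2.

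Of 10 insulin-repressed genes of the FOXO1 group, 6 were higher in fed p110αhep-/- than in fed p110αhep+/+ mice on CTRL diet (median 0.51; 10.9% of all genes) and 4 on HFD (median 0.09; 16.6% of all genes), and the rest were not called. On CTRL diet the largest differences were those of Igfbp1 (3.27), Enho (3.07) and Irs2 (1.92), and on HFD those of Enho (2.66), Irs2 (1.49) and Pck1 (0.79). Of 10 genes induced by insulin through SREBP-1c, most of which build fatty acids, 7 were lower in fed p110αhep-/- mice on CTRL diet (median -0.84; 10.6% of all genes) and 9 on HFD (median -2.03; 16.3%). On HFD, Me1 (-2.82) and Scd1 (-2.68) were among the largest differences. Pnpla3 was lower there as well (-3.45), but its spot exceeded the background clearly on no more than 4 of 6 arrays of fed p110αhep-/- mice on HFD, and the size of its difference is uncertain. With fasting on CTRL diet, all 10 of these genes fell in both genotypes (medians -2.73 and -2.18), where 16.5% and 19.1% of all genes were lower. In p110αhep+/+ mice Fasn changed by -4.47 and Elovl6 by -3.46. Pnpla3 changed by -4.64 there, from a mean of 9.75 to one of 5.33 with 1 of 6 fasted arrays well above background, so that this value too is uncertain in size.

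Of the rest of the angiopoietin-like family on the lists, Angptl7 did not pass the filter and 3 genes were tested. Gm6484, the name on the array of the gene for Angptl8, an insulin-induced partner in the inhibition of lipoprotein lipase, fell with fasting on CTRL diet, with log2 fold changes of -3.40 ± 0.41 in p110αhep+/+ and -2.57 ± 0.41 in p110αhep-/- mice. On HFD the changes were -1.84 ± 0.39 in p110αhep+/+ mice (adjusted p = 0.000349) and -1.14 ± 0.45 in p110αhep-/- mice (adjusted p = 0.0576, not called). In this last comparison 1 gene of the family was called lower with the replicate number or the slide as a block, under median scaling and without array weights. Angptl4 rose in all 4 of these comparisons. In fed p110αhep+/+ mice HFD changed Gm6484 by -1.72 ± 0.40 (adjusted p = 0.00133), where Angptl4 was higher. With fasting, Angptl1 changed by -0.35 in p110αhep+/+ mice on HFD (adjusted p = 0.0173) and was not called in the other 3 comparisons. Its probe was well above background on 24 of 48 arrays, and the 2 family genes lower in that comparison were 1 with normexp, under the 75th percentile and with probes well above background on all arrays. Angptl2 was between -0.22 and 0.02 and was not called in any of the 4.

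Of 13 genes that assist lipolysis in the circulation, 3 were lower in fed p110αhep-/- mice on HFD (median -0.04), close to the 16.3% of all genes that were lower there. They were Pcsk6 (-0.59), a convertase, Pltp (-0.49), which transfers phospholipids, and Apoc2 (-0.39), the cofactor of lipoprotein lipase. In fasted mice on HFD, 3 were lower and 1 was higher (median -0.04; 17.7% of all genes were lower and 19.1% higher), with Apoc2 at -0.51, Pcsk6 at -0.44 and Gpihbp1, which anchors lipoprotein lipase on capillaries, at 0.42. HFD raised 5 of 13 in fed p110αhep-/- mice (median 0.14; 5.82% of all genes), with Apoc2 at 0.46, Pcsk5 at 0.46 and Gpihbp1 at 0.43.

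Of 8 genes of lipoprotein and fatty acid uptake, 3 were higher and 2 lower in fed p110αhep-/- mice on HFD (median 0.12), where 16.6% of all genes were higher and 16.3% lower. Among them were Cd36 (-1.36), a fatty acid transporter, and Scarb1 (0.96), the HDL receptor. Cd36 thus differed in the direction opposite to Lpl. With HFD in fed p110αhep-/- mice, 4 were higher and 1 was lower (median 0.15; 5.82% of all genes were higher and 6.38% lower), with Cd36 at 2.36 and Vldlr, the VLDL receptor, at 1.00. Lsr, a lipoprotein receptor, was the lower one (-0.31), and under the other settings the number lower was 0 to 2.

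The genes whose levels were most like those of each member were sought among 16323 genes that passed in at least 1 of the 12 comparisons. Over the 48 arrays, which share groups and processing, Angptl4 was most like Dnmbp (r = 0.94), Rab30 (r = 0.90) and Lgals4 (r = 0.89) and least like Mid1ip1 (r = -0.92). After the group means were removed, the correlation with Dnmbp was 0.78 and with Mid1ip1 -0.67. Lpl was most like Spred1, Ntn1 and Hsd17b6 (r = 0.82 each) and least like Nat8 (r = -0.90), and within groups these fell to 0.21, 0.37, 0.34 and -0.34. Lipc was most like Gfer (r = 0.81, 0.70 within groups), Olfr125 (0.73) and Il1rap (0.71) and least like Ifi27l2b (-0.77). Angptl6 was most like Ndufaf6 (r = 0.79, 0.31 within groups), the transcript ENSMUST00000178807 (0.77) and Inmt (0.76) and least like Ift22 (-0.80).

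Among the members themselves, r over the 48 arrays was -0.47 between Angptl4 and Angptl6, and 0.25 within groups. Between Angptl6 and Lipc it was 0.32, and 0.38 within groups, and between Angptl6 and Lpl 0.32 and 0.24. Between Lpl and Lipc it was -0.27, and -0.31 within groups, between Angptl4 and Lpl 0.23 and 0.08, and between Angptl4 and Lipc -0.01 and 0.28.

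Promoter windows from RefSeq (GRCm38.p6; 250 bases before to 50 after a start) were matched by symbol to Angptl6 and to Lipc. The searched letters, on both strands, were TGTTTAC for FOXO factors, AGGTCA for nuclear receptors and its direct repeat with 1 base between, TATAAA for the TATA box, CCAAT for the factor NF-Y and CACGTG for the E-box, besides a known SREBP motif. The Angptl6 window, chr9:20879661-20879960 on the minus strand, held none of these letters. Both Lipc windows held CCAAT, which 37.4% of 32851 windows of the same length hold. One of them, chr9:70934759-70935058 on the minus strand, also held AGGTCA, as 16.3% of all windows do. The FOXO letters are found in 3.65%, the TATA box in 13.6%, the E-box in 7.15%, the SREBP motif in 1.24% and the direct repeat, which contains AGGTCA, in 0.0396% of windows.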

How the data were processed

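Liver RNA of 48 mice was measured on one-colour Agilent arrays. The authors labelled 200 ng of RNA, hybridized and washed the arrays in 2 washing batches of 3 slides and read them with Agilent Feature Extraction 10.10.1.1 (per the labels). What they deposited for each array is the intensity of its spots and their local background, not normalized, with the flags of the software. The authors also deposited a table of log2 values of 32437 probes, which they had filtered, corrected for the washing batch and quantile normalized; it was used as an alternative, and its filter is not given in the sources used here.

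The log2 median signal of the 59305 of 62976 spots that are not controls was taken, leaving out outlier spots (92 to 151 on an array), and averaged over the spots of a probe. Probes well above background on at least 5 of 6 arrays of some group were kept. No spot was saturated. Precision is limited by the number of arrays. The washing batch was removed with the group means protected, and arrays were quantile normalized. A mean for each group was fitted to all arrays with limma 3.58.1 (R 4.3.3) and arrayWeights (weights 0.35 to 1.72), following the study's methods, with the Benjamini-Hochberg adjustment over 30793 probes. A gene was read from its brightest probe. The scripts were tested on simulated data.

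Groups came from the labels. The members, lists and tests were chosen with earlier results of these data known, so counts over them are descriptions. Genes named are the members, the targeted gene, the 3 called genes of a list with the largest change in a comparison, and the genes most like each member. Markers named beside Lpl and genes named beyond this rule were chosen after their values were seen. Values within a washing batch are differences of means without a test. Alternatives were the processed signal scaled to its 75th percentile, normexp background correction (offset 50), median scaling, other filters, no batch correction, blocking by slide or by replicate number, a fit with no array weights, the deposited values, arrays of 1 nutritional state only, a fold change over 1.5 for list counts, and the other probes of Lpl. Protein sequences were not used here, and 1 gene that the naming rule covers is not reported here.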

Additional observations from a re-analysis of the deposited data

Results flagged for a closer look

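The response of Angptl4 to fasting differed between diets in p110αhep+/+ mice, with a diet by fasting interaction of -1.04 (limma, adjusted p = 0.0054). It was not called without array weights (-0.92, adjusted p = 0.0615), and was -0.57 within the first washing batch and -1.26 within the second.

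Among the other Lpl probes, 3 had interactions that passed. For the first clone probe they were genotype by fasting on HFD (-0.98, adjusted p = 0.00123), genotype by diet in fed mice (1.25, adjusted p = 6.33e-05) and diet by fasting in p110αhep-/- mice (-1.0, adjusted p = 0.000483). For the second clone probe they were genotype by diet in fed mice (1.08, adjusted p = 0.00132) and diet by fasting in p110αhep-/- mice (-0.87, adjusted p = 0.00567). For the first RefSeq probe they were genotype by diet in fed mice (0.67, adjusted p = 0.0138) and in fasted mice (0.65, adjusted p = 0.0109). On CTRL diet the first clone probe was well above background on 3, 0, 3 and 4 of 6 arrays (p110αhep+/+ fed and fasted, then p110αhep-/- fed and fasted). The first RefSeq probe was so on 2, 3, 5 and 6, and the second clone probe on 5, 3, 6 and 5. The CTRL means of the second clone probe were 5.67 to 5.89. The interactions of these 3 probes with diet are therefore uncertain in size. The brightest Lpl probe passed for no interaction in limma, and 2 of its interactions, those of genotype by diet, were below 0.05 before adjustment.

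In 6 of 72 sets of values, each of 1 probe in 1 group of 6 mice, 1 mouse stood apart from the others by Dixon's criterion, which chance meets in about 1 in 20 independent sets. The sets are not independent, since the 9 probes read the same 8 groups. For Angptl4, replicate 1 of fasted p110αhep-/- mice on HFD had a log2 level of 15.84, and the others 16.05 to 16.14. For the second RefSeq probe of Lpl, replicate 5 of the same group had 8.84, and the others 9.11 to 9.21. For the second clone probe, replicate 1 of fed p110αhep+/+ mice on HFD had 6.57 (others 6.04 to 6.18). For the first clone probe, replicate 3 of fasted p110αhep-/- mice on CTRL diet had 5.99 (others 5.49 to 5.67). For the first RefSeq probe, replicate 1 of fasted p110αhep+/+ mice on CTRL diet had 5.99 (others 5.45 to 5.64) and replicate 5 of fed p110αhep-/- mice on CTRL diet had 6.06 (others 5.60 to 5.74).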

How the results depend on the processing

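Each of the 72 differences (4 genes, 12 comparisons and 6 interactions) was recomputed under 10 other settings, and the 40 that lie within 1 nutritional state also with its arrays only, and 749 of 760 values kept their side of the threshold and, where called, their direction. Values called in neither setting were not compared by direction. For Angptl4, the genotype difference in fed mice on CTRL diet was not called without array weights (0.39), without a filter on dim probes (0.49, adjusted p = 0.0594) or with the arrays of fed mice only (0.51, adjusted p = 0.0771), and the diet by fasting interaction in p110αhep+/+ mice was not called without weights (-0.92). For Angptl6, the genotype difference in fasted mice on HFD was not called under median scaling (0.16) or the 75th percentile (0.17), and the genotype by fasting interaction on CTRL diet was called with normexp (-0.30). For Lipc, the genotype difference in fed mice on CTRL diet was not called without a filter (0.37), fasting in p110αhep-/- mice on CTRL diet was called without weights (-0.38), and the genotype by fasting interaction on CTRL diet was called with slide as a block (-0.57). For Lpl, HFD in fasted p110αhep+/+ mice was called with the arrays of fasted mice only (0.50). The cause was not tested.

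With the replicate number as a block (replicate block), no call of the members changed, for example 1.70 for fasting and Angptl4 in p110αhep+/+ mice on CTRL diet. Among the other angiopoietin-like genes, 1 was called lower with fasting in p110αhep-/- mice on HFD under this block. Same-numbered mice of different groups had correlated deviations of 0.02 on average (-0.35 to 0.34), so the number was not taken to pair them.

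With another Lpl probe, 60 of 90 values were as for the brightest. With the Ensembl probe, the genotype differences of 0.16, 0.19 and 0.17 (CTRL fed, CTRL fasted, HFD fasted) and HFD differences of 0.06 (fed p110αhep+/+), 0.16 and 0.07 (fed and fasted p110αhep-/-) were not called, fasting was called at 0.29 in p110αhep-/- mice on CTRL diet, and the sign turned to 0.26 and 0.28 in p110αhep+/+ mice (CTRL diet, HFD). With the first clone probe, genotype (0.00, 0.33 and 0.27 for CTRL fed, CTRL fasted, HFD fasted) and HFD in fed p110αhep+/+ mice (0.15) were not called, HFD in fasted p110αhep+/+ mice (0.45), genotype by diet in fed mice (1.25) and diet by fasting in p110αhep-/- mice (-1.0) were called, and the sign turned for fasting in p110αhep-/- mice on HFD (-0.91) and genotype by fasting on HFD (-0.98). With the second clone probe, genotype in fasted mice on CTRL diet (0.29) and HFD in fed p110αhep+/+ mice (0.31) were not called, genotype by diet in fed mice (1.08) and diet by fasting in p110αhep-/- mice (-0.87) were called, and the sign turned for genotype in fed mice on CTRL diet (-0.01) and fasting in p110αhep-/- mice on HFD (-0.77). With the first RefSeq probe, genotype in fed mice on CTRL diet (0.21) and HFD in fed p110αhep+/+ mice (0.24) were not called, and fasting in p110αhep-/- mice on CTRL diet (0.28) and genotype by diet (0.67 fed, 0.65 fasted) were called. With the second RefSeq probe, HFD in fasted p110αhep+/+ mice was called (0.48).

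With a fold change over 1.5 required, PPARα targets raised by fasting numbered 12 and 15 on CTRL diet and 3 and 6 on HFD (p110αhep+/+, p110αhep-/-), those lowered by fasting on HFD 0 in both, those raised by HFD in fed mice 7 and 9, those lowered by HFD in fasted p110αhep-/- mice 7, those lower in fed p110αhep-/- mice on CTRL diet 3 and in fasted ones on HFD 2, and those lowered by HFD in fasted p110αhep+/+ mice 3. The last were 5 as reported, 8 under median scaling, 10 under the 75th percentile, 2 without array weights and 3 without a filter or with fasted arrays only. The 2 higher in fed p110αhep-/- mice on HFD were 4 with fed arrays only. The 7 raised by fasting in p110αhep+/+ mice on HFD were 4 without array weights or without a filter, and the 4 lowered there were 2 in both, under median scaling, the 75th percentile and the replicate block. The 2 lowered in p110αhep-/- mice on HFD were 1 under median scaling, the 75th percentile, no weights, no filter or no batch correction. The 6 FOXO1 genes were 4 and the 7 SREBP-1c genes 6 in fed mice on CTRL diet. In fed mice on HFD, 1 lipolysis gene was still lower, in fasted mice on HFD 0 were lower and 0 higher, and HFD raised none of the 5 in fed p110αhep-/- mice by that much. Of the uptake genes that HFD raised in fed p110αhep-/- mice, 2 of 4 rose by that much. The 1 lowered there was 0 with the fold, without weights or without a filter, and 2 with fed arrays only, slide as a block or the replicate block. Scaling moved the median of all genes by at most 0.04. Dim probes near background, those of Lpl, Pnpla3, Gpnmb and Angptl1, limit the folds that can be read there.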
